A study of Mus musculus with 9 samples.

Results

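The 9 genes described here encode the subunits of the hypoxia-inducible factors (HIF) and the proteins that make HIF respond to oxygen. They were chosen by gene symbol, with earlier results of these data known, and they are 9 of the 54532 genes measured. Hif1a, Epas1 and Hif3a encode the alpha subunits HIF-1α, HIF-2α and HIF-3α. Arnt encodes their shared partner HIF-1β. Egln1, Egln2 and Egln3 encode the prolyl hydroxylases PHD2, PHD1 and PHD3, Hif1an encodes the asparaginyl hydroxylase FIH, and Vhl encodes the von Hippel-Lindau protein.

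In cells with enough oxygen, the prolyl hydroxylases add a hydroxyl group to HIF-α. The von Hippel-Lindau protein, held in a ubiquitin ligase with elongins B and C, cullin 2 and Rbx1, binds the hydroxylated subunit and sends it to the proteasome. FIH hydroxylates an asparagine in the HIF-α transactivation domain and so blocks the binding of the coactivators P300 and CBP. When oxygen falls, HIF-α is spared, joins HIF-1β and binds hypoxia response elements with the core ACGTG or GCGTG. Egln1 and Egln3 are themselves well-known HIF target genes, which forms a feedback loop on HIF-α, whereas Egln2 is not known as a gene induced by hypoxia. HIF-α is controlled mostly as a protein, and the libraries measured RNA only.

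The libraries came from BV2 cells, an immortalized line of mouse microglia, with 3 in each of 3 groups. Control cells were kept in complete DMEM with 10% serum. Cells under oxygen-glucose deprivation (OGD) received low-glucose DMEM and 4% serum at 4% oxygen, and the third group had the same OGD with A-485, an inhibitor of the acetyltransferase activity of P300 and CBP. The OGD of 24 h and the dose of 50 μM A-485 are those of the preceding cell experiments, since neither is given for these libraries. Oxygen, glucose and serum all differed between control and OGD, so their effects cannot be told apart, and no group had A-485 without OGD. Nothing states that the 3 libraries of a group came from separate cultures, and the p-values then measure only the spread between these libraries, which may be technical.

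The deposited values are FPKM, reads scaled to gene length and to sequencing depth, so levels of different genes can be compared. Between 12593250 and 16091038 reads fell on genes per library. Of the 10 microglia and macrophage markers examined, 9 averaged at least 1 FPKM over the 9 libraries, with P2ry12 below it. Aif1 did so only through the A-485 libraries, with means of 0.613 FPKM in control, 0.889 FPKM in OGD and 2.57 FPKM with OGD + A-485. The summed level of the 10 was 378 to 387 FPKM in control, 438 to 466 FPKM in OGD and 769 to 812 FPKM in the A-485 libraries. Most of it was Cd68, with means of 277, 306 and 445 FPKM in that order. Not every marker followed the sum. Csf1r did (24.2, 44.6 and 131 FPKM), whereas Spi1 was lower in OGD (43.9, 38.5 and 97.9 FPKM) and Tmem119 was nearly level (1.40, 1.34 and 1.33 FPKM). No marker of neurons (0 of 6), astrocytes (0 of 5), oligodendrocytes (0 of 5) or fibroblasts (0 of 5) averaged 1 FPKM. Of 5 endothelial markers 1 averaged at least 1 FPKM, Vwf, with a mean of 1.79 FPKM. Mitochondrial genes took 1.14% to 1.28% of reads in OGD libraries and 1.66% to 2.20% in the others. The part of the marker levels and of the mitochondrial share in the results below was not tested. In bulk RNA, fewer cells that use a gene and less of its RNA per cell cannot be told apart.

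Changes were fitted with limma on log2(FPKM + 0.1) over the 16123 genes that averaged 0.2 FPKM or more, and fold changes in log2 below are on that scale, which understates changes of low genes. A call needed a raw p-value under 0.01 together with a log2 fold change beyond 0.5 in either direction. The p-values printed are adjusted over all genes tested (Benjamini-Hochberg). All 9 genes passed the filter on low values. Hif3a did so with a mean of 0.222 FPKM and only through its OGD libraries.

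The promoters of the 3 prolyl hydroxylase genes are shown first because Egln1 and Egln3 are known HIF targets and Egln2 is not. The windows reach from 250 bases before to 50 after the RefSeq start site of each gene on the minus strand of GRCm38.p6, and capitals mark the cores ACGTG and GCGTG or their reverse complements CACGT and CACGC. The E-box CACGTG overlaps ACGTG on both strands. The windows are chr12:54203825-54204124 for Egln3, chr8:124949205-124949504 for Egln1 and chr7:27166753-27167052 for Egln2, each read 5′ to 3′ on the strand of the gene.
Egln3: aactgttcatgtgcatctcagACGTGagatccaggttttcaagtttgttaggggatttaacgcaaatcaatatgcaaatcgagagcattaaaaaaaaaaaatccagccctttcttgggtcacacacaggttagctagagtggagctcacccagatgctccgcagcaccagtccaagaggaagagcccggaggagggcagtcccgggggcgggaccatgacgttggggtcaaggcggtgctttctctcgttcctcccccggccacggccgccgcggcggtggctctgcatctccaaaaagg
Egln1: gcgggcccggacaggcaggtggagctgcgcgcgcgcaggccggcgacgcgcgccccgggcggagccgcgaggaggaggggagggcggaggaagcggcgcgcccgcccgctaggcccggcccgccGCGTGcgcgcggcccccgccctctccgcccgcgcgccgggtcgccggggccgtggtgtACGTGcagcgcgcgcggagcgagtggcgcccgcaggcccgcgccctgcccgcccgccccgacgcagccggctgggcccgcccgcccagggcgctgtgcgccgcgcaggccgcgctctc
Egln2: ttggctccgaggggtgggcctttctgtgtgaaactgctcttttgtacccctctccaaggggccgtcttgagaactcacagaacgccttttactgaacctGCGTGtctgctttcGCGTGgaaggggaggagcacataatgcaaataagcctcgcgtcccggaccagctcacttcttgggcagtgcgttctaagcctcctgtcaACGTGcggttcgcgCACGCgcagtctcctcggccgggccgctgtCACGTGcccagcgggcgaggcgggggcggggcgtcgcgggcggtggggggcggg

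The Egln3 window held 1 core, an ACGTG that begins 229 bases before the start site. Egln1 held 2 cores, a GCGTG at position -126 and an ACGTG at position -68, in a window of 86.0% G and C. Egln2 held 6 cores, 2 of them from 1 CACGTG next to the start site, and 1 more in the window of its other RefSeq start site. Cores were counted on both strands, so that a CACGTG counts as 2, here and over all promoters. Of all 32851 RefSeq promoters of the same length, 43.8% held at least 1 core, 20.6% at least 2 and 0.694% at least 6. Among the other genes, Hif1a held 3 cores (2 of them from 1 CACGTG), Hif3a held 2, Arnt held 1, and Vhl and Hif1an held 0. Epas1 had no entry. A match in a window describes its letters and does not show a site in use, and the known HIF-binding element of human EGLN3 lies in an intron, outside such a window.

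In OGD against control, 3 of the 9 genes were called higher (Egln3, Egln1 and Vhl) and 0 were called lower by limma, where 11.2% of all genes tested were called higher and 9.81% lower (21% in either direction). Of lower genes, 2 had an unadjusted p-value under 0.05, and limma-voom on the reads called 0. By an adjusted p-value under 0.05 with no limit on the fold, 7 of the 9 differed, where 22.5% of all genes did so in the higher and 22.8% in the lower direction. The libraries of both groups did not overlap for 8 of the 9 genes, 6 higher and 2 lower, against 28% and 27.5% of all genes (55.4% together). That share is so common that it says little about these genes, and 1 of the 6, Hif3a, had passed the filter only through OGD. The median log2 fold change was 0.47 over the 9 genes, Hif3a included, and 0.01 over all genes. In OGD + A-485 against OGD, 1 gene was called higher (Egln2) and 2 were called lower (Egln3 and Arnt), where 12.2% and 13.4% of all genes were called (25.7% in either direction). The libraries did not overlap for 4 genes that were higher and 5 that were lower, against 28.5% and 28.3% of all genes (56.8% together). Of the 5, 1 was again Hif3a, whose passage of the filter through OGD alone favours a lower value here. In OGD + A-485 against control, 4 genes were called higher (Epas1, Egln1, Egln2 and Vhl) and 1 lower (Egln3), where 17% and 16.6% of all genes were called (33.7% in either direction). There, 4 genes lay wholly higher and 4 wholly lower, against 31.8% and 32% of all genes (63.8% together). The comparisons share libraries and are given side by side.

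**Figure D1:**
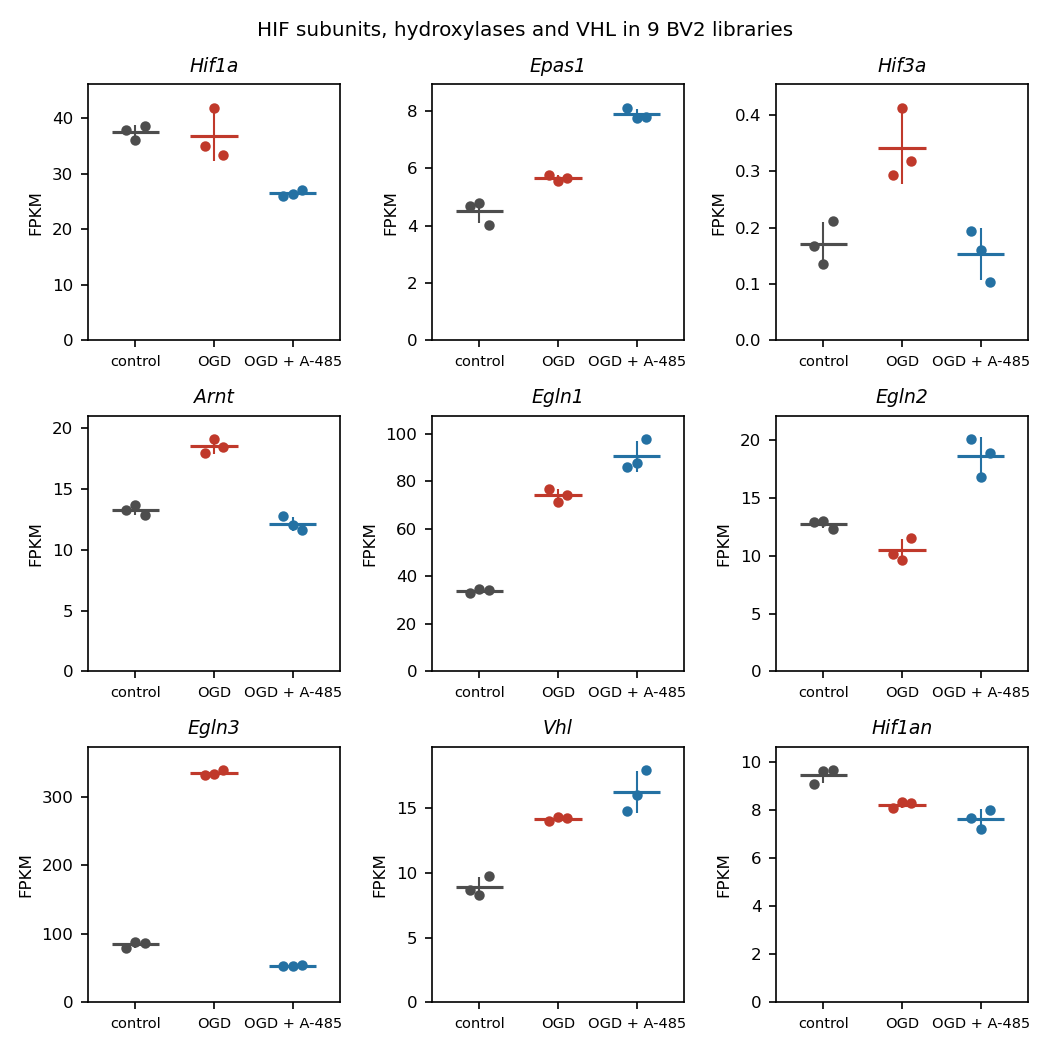
FPKM of the 9 genes in each library (points), with the mean (horizontal line) and SD (vertical line) of 3 libraries per group. Each vertical axis starts at 0 and has its own scale. Egln3 lies near 335 FPKM in OGD and near 53.4 FPKM with OGD + A-485, whereas Egln1 is above control in both.

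Egln3 (ENSMUSG00000035105, chr12:54178981-54203860, minus strand) encodes PHD3, the prolyl hydroxylase whose RNA is most responsive to hypoxia in many cell types. Its level was 79.4, 88.8 and 86.3 FPKM in the control libraries, 332, 333 and 339 FPKM in OGD and 53.5, 52.6 and 54.2 FPKM with OGD + A-485. The 3 groups were fully separate, with OGD highest and OGD + A-485 below control. Egln3 rose 3.95-fold in OGD, a log2 fold change of 1.98 (SE 0.04, adjusted p = 3.98e-08, limma). With A-485 it was 6.27-fold lower than in OGD (log2 fold change -2.65, adjusted p = 3.47e-09, limma). It was also 1.59-fold lower than in control (log2 fold change -0.66, adjusted p = 2.37e-06, limma). Among the 11898 genes that averaged 1 FPKM or more, its OGD change ranked 105 from the highest and its A-485 change ranked 97 from the lowest. Each library held 2081 to 12708 Egln3 reads, so counting error was small.

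Egln1 (ENSMUSG00000031987, chr8:124908587-124949324, minus strand) encodes PHD2, regarded as the main enzyme that limits HIF-1α in cells with oxygen. It stood at 32.9, 34.9 and 34.2 FPKM in control, at 76.9, 71.3 and 74.3 FPKM in OGD and at 86.1, 87.7 and 98.0 FPKM with OGD + A-485. Here too the groups did not overlap, but the libraries with A-485 were the highest. Egln1 rose 2.18-fold in OGD (log2 fold change 1.12, SE 0.05, adjusted p = 1.55e-06, limma). OGD + A-485 against OGD gave a log2 fold change of 0.29 (adjusted p = 0.00215, limma), under the limit of 0.5 and so not called. It was 0.14 after quantile normalization and 0.09 after subtraction of the median of the 50 neighbouring genes. Against control, OGD + A-485 was 2.66-fold higher (log2 fold change 1.41, adjusted p = 1.2e-07, limma). Egln1 and Egln3 both rose in OGD, but with A-485 Egln3 was far below its OGD level, while every library had Egln1 above it.

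Egln2 (ENSMUSG00000058709, chr7:27158658-27166802, minus strand) encodes PHD1. Its values were 12.9, 13.0 and 12.3 FPKM in control, 10.2, 9.66 and 11.6 FPKM in OGD and 20.1, 16.8 and 18.9 FPKM with OGD + A-485. OGD libraries were the lowest and those with A-485 the highest, with no overlap. The log2 fold change of -0.28 in OGD (SE 0.08, adjusted p = 0.0203, limma) was not called. With A-485, Egln2 rose 1.78-fold over OGD (log2 fold change 0.82, adjusted p = 4.59e-05, limma) and stood 1.46-fold over control (log2 fold change 0.54, adjusted p = 0.000453, limma). The difference from control was not called without replicate 1 of OGD + A-485 (0.48), after scaling to library totals (0.42) or after subtraction of the median of the 50 neighbouring genes (0.47). The end of Egln2 overlaps Cyp2t4 on the opposite strand, which averaged 0.0996 FPKM.

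**Figure D2:**
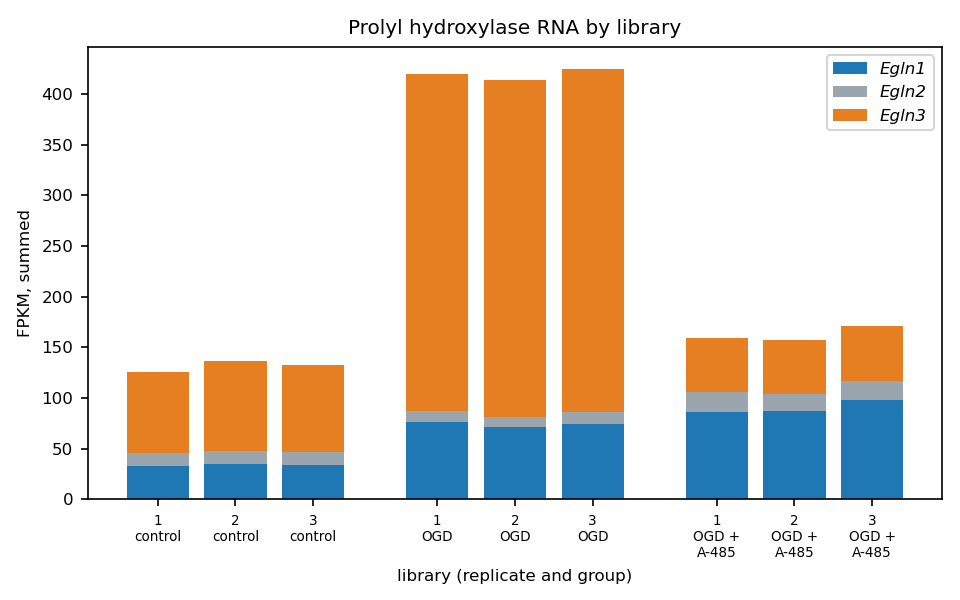
Summed FPKM of Egln1, Egln2 and Egln3 in each of the 9 libraries, as stacked bars from 0. The sum is 414 to 425 FPKM in OGD, 125 to 137 FPKM in control and 157 to 171 FPKM in OGD + A-485, where Egln1 makes up more than Egln3.

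The RNA of the 3 prolyl hydroxylases together came to 132 ± 5.84 FPKM in control, 419.7 ± 5.45 FPKM in OGD and 163 ± 7.49 FPKM with OGD + A-485 (mean ± SD, n = 3 libraries here and below). Egln3 made up 64.5% ± 0.930 of this sum in control, 79.8% ± 0.612 in OGD and 32.9% ± 1.03 with OGD + A-485. The share of Egln1 was 25.9% ± 0.402, 17.7% ± 0.588 and 55.7% ± 1.67 in the same order. The share of Egln2 was 9.69% ± 0.553, 2.49% ± 0.202 and 11.4% ± 1.01. For each of the 3 shares and each pair of groups the libraries did not overlap, and the two-sided exact permutation p-value was 0.1, the smallest that 3 libraries against 3 allow. In OGD + A-485 the most abundant hydroxylase RNA was thus Egln1, while in control and OGD it was Egln3. A ratio chosen after the values were seen, Egln3 over Egln1, was 2.49 ± 0.0735 in control, 4.52 ± 0.181 in OGD and 0.591 ± 0.0344 with OGD + A-485, and it was given no test.

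**Figure D3:**
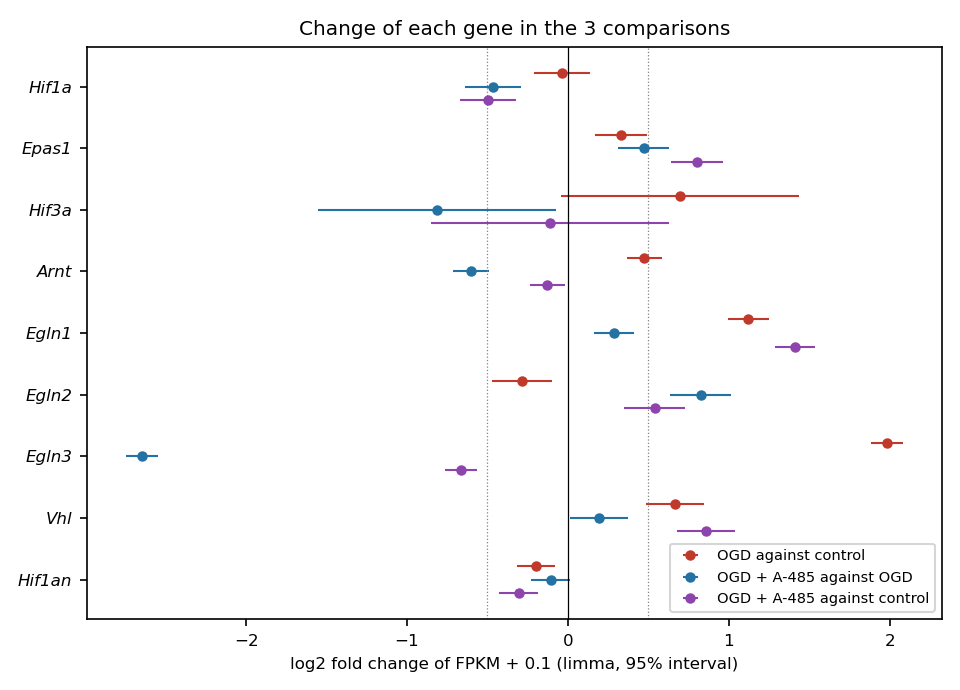
Log2 fold change of FPKM + 0.1 for the 9 genes in 3 comparisons, with 95% confidence intervals from limma. Dotted lines mark the limit of 0.5 in either direction, and Egln3 lies at 1.98 in OGD and at -2.65 with OGD + A-485 against OGD.

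Hif1a (ENSMUSG00000021109, chr12:73901375-73947530, plus strand) encodes HIF-1α, and its protein is what low oxygen is known to stabilize. Its RNA was at 37.7, 36.0 and 38.5 FPKM in control, 34.9, 41.8 and 33.4 FPKM in OGD and 26.0, 26.4 and 27.1 FPKM with OGD + A-485. Control and OGD libraries overlapped, and all 3 libraries with A-485 were below the other 6. The change in OGD was -0.03 in log2 (SE 0.08, 95% interval -0.21 to 0.14, adjusted p = 0.756, limma), an interval that lies inside the limit of 0.5 in both directions. OGD + A-485 against OGD gave -0.46 (adjusted p = 0.000927, limma) and against control -0.50 (adjusted p = 0.000466, limma), both just short of the limit of 0.5. Both were called after quantile normalization (-0.56 and -0.56) and after scaling to library totals (-0.53 and -0.61). The first was also called without OGD replicate 3 (-0.53), and the second without control replicate 2 (-0.52) or OGD + A-485 replicate 3 (-0.51). An antisense gene, Gm15283, overlaps Hif1a at 0.416 FPKM, and the strand setting of the counting is not given in the sources used here. The protein-coding gene Gm49321 overlaps the end of Hif1a on the same strand, at 0 FPKM. The part of these overlaps in the Hif1a level was not tested.

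Epas1 (ENSMUSG00000024140, chr17:86753907-86833410, plus strand) encodes HIF-2α, which is known for its role in endothelial cells and in iron and erythropoietin control. Its level was 4.68, 4.79 and 4.02 FPKM in control, 5.77, 5.57 and 5.65 FPKM in OGD and 8.11, 7.75 and 7.79 FPKM with OGD + A-485. The groups lay in that order with no overlap. Neither step was called alone, with log2 fold changes of 0.33 in OGD (SE 0.07, adjusted p = 0.0047, limma) and 0.47 with A-485 over OGD (adjusted p = 0.000548, limma). OGD + A-485 was 1.75-fold higher than control (log2 fold change 0.80, adjusted p = 1.4e-05, limma). The second step was called after quantile normalization (0.51) and after subtraction of the median of the 50 neighbouring genes (0.84), which also gave 1.21 against control. The summed level of 5 endothelial markers moved the same way, with 1.26 to 1.34 FPKM in control, 2.45 to 3.06 FPKM in OGD and 4.19 to 4.49 FPKM with OGD + A-485, of which 1 marker, Cldn5, was at 0 in every library. From OGD to OGD + A-485 the sum was higher through Vwf alone (1.41 to 3.27 FPKM), while Pecam1 (0.866 to 0.739 FPKM) and Cdh5 (0.5003 to 0.324 FPKM) had lower means and Tek stayed under 0.1 FPKM. Its part in the Epas1 values was not tested.

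Hif3a (ENSMUSG00000004328, chr7:17031507-17062427, minus strand) encodes HIF-3α, of which some forms restrain the other alpha subunits. It was close to undetected, at 0.167, 0.136 and 0.212 FPKM in control, 0.293, 0.412 and 0.318 FPKM in OGD and 0.194, 0.160 and 0.103 FPKM with OGD + A-485. These levels rest on few reads per library, 13 to 23 for control, 25 to 36 for OGD, 10 to 19 for OGD + A-485. The OGD libraries were above the other 6. The log2 fold changes of 0.70 in OGD (SE 0.32, adjusted p = 0.114, limma) and -0.81 with A-485 over OGD (adjusted p = 0.0667, limma) were not called. Both passed the thresholds with limma-voom on the reads (0.96 and -1.16) or without a trend in the variance, and shrank to 0.19 and -0.22 with a pseudocount of 1. Since OGD is the group that let Hif3a through the filter, these are given as values only.

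By level, the alpha subunit RNA was mostly Hif1a in every group. Hif1a made up 88.9% ± 1.08 of the summed alpha FPKM in control, 85.8% ± 1.44 in OGD and 76.7% ± 0.832 with OGD + A-485. Epas1 made up 10.7% ± 1.17, 13.4% ± 1.49 and 22.8% ± 0.707. The libraries with A-485 were apart from the other 6 for both shares (exact permutation p = 0.1, the smallest possible), while the Epas1 share overlapped between control and OGD (exact permutation p = 0.2). Hif3a made up 0.407%, 0.795% and 0.443%. The summed alpha level was 42.1 ± 1.01 FPKM in control, 42.7 ± 4.49 FPKM in OGD and 34.5 ± 0.380 FPKM with OGD + A-485.

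Prolyl hydroxylase RNA relative to alpha subunit RNA, the ratio of both sums, was 2.94, 3.34 and 3.11 in control, 10.2, 8.67 and 10.8 in OGD and 4.66, 4.58 and 4.90 with OGD + A-485. The 3 groups did not overlap, with OGD highest (exact permutation p = 0.1 for each pair, the smallest possible). The mean ratio was 3.13 ± 0.201, 9.90 ± 1.11 and 4.71 ± 0.165. Nearly all of the difference between OGD and control came from the hydroxylase side, since the alpha sum overlapped between these groups.

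Arnt (ENSMUSG00000015522, chr3:95434388-95497240, plus strand) encodes HIF-1β, which is held to be present at all oxygen levels and also pairs with the aryl hydrocarbon receptor. It stood at 13.3, 13.7 and 12.9 FPKM in control, 17.9, 19.1 and 18.4 FPKM in OGD and 12.7, 12.05 and 11.6 FPKM with OGD + A-485. All OGD libraries were above all others. The log2 fold change in OGD was 0.47 (SE 0.05, adjusted p = 6.49e-05, limma), just under the limit and so not called, and it was 0.50 and called after quantile normalization and 0.28 after subtraction of the median of the 50 neighbouring genes. With A-485, Arnt fell 1.52-fold from OGD (log2 fold change -0.60, adjusted p = 1.2e-05, limma). Against control the value was -0.13 (adjusted p = 0.0484, limma). The pseudogene Gm42672 lies inside Arnt on the same strand, at 2.52 FPKM.

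Hif1an (ENSMUSG00000036450, chr19:44562850-44576274, plus strand) encodes FIH. It was measured at 9.07, 9.63 and 9.67 FPKM in control, 8.07, 8.31 and 8.28 FPKM in OGD and 7.68, 7.22 and 8.01 FPKM with OGD + A-485. All control libraries were above all OGD libraries, which were above those with A-485, by small steps. No comparison was called, with log2 fold changes of -0.20 in OGD (SE 0.05, adjusted p = 0.0141, limma), -0.11 with A-485 over OGD (adjusted p = 0.129, limma) and -0.31 against control (adjusted p = 0.000993, limma). The 50 nearest genes on the chromosome had a median of -0.43 in both comparisons with A-485, and after its subtraction the values for Hif1an turned to 0.32 and 0.12.

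Vhl (ENSMUSG00000033933, chr6:113623959-113631633, plus strand) encodes the subunit of the ubiquitin ligase that recognizes hydroxylated HIF-α. Its level was 8.69, 8.31 and 9.77 FPKM in control, 14.0, 14.3 and 14.2 FPKM in OGD and 14.8, 16.0 and 18.0 FPKM with OGD + A-485. Both OGD groups were above control in every library. Vhl rose 1.59-fold in OGD (log2 fold change 0.67, SE 0.08, adjusted p = 0.00017, limma) and was 1.82-fold above control in OGD + A-485 (log2 fold change 0.86, adjusted p = 1.94e-05, limma). Between OGD + A-485 and OGD the log2 fold change was 0.19 (adjusted p = 0.0749, limma), which was not called.

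Ordered by FPKM, the control libraries had Egln3, Hif1a, Egln1, Arnt, Egln2, Hif1an, Vhl, Epas1 and Hif3a from high to low. Arnt overlapped Egln2 and Hif1an overlapped Vhl over the libraries. In OGD the order was Egln3, Egln1, Hif1a, Arnt, Vhl, Egln2, Hif1an, Epas1 and Hif3a, and no neighbours overlapped. In OGD + A-485 it was Egln1, Egln3, Hif1a, Egln2, Vhl, Arnt, Epas1, Hif1an and Hif3a, where Egln2 overlapped Vhl and Epas1 overlapped Hif1an. Egln1 and Egln3 were thus above Hif1a in both OGD groups, whereas Hif1a was above Egln1 in control.

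None of the 4 partners of VHL in its ligase was called higher in any comparison. Of all genes, 11.2% were in OGD, 12.2% with A-485 over OGD and 17% in OGD + A-485 against control. With only 4 genes, this count says little. Elob, which encodes elongin B, was at 56.0, 53.9 and 59.1 FPKM in control, OGD and OGD + A-485 (group means, n = 3). Eloc, for elongin C, was at 27.0, 26.2 and 24.03 FPKM, and Rbx1, the RING subunit, at 15.1, 14.0 and 16.8 FPKM. None of these 3 was called in any comparison. Cul2, the cullin scaffold, stood at 18.3, 14.6 and 11.4 FPKM and was called lower in OGD + A-485 against control (log2 fold change -0.69, adjusted p = 9.02e-06, limma).

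Over the whole list of 14 genes for HIF-α turnover, 0 were called higher in OGD by limma and by limma-voom, where 6 had an unadjusted p-value under 0.05. Siah1b and Wdr83 were called lower, the latter named after its values were seen. Siah1b, a ubiquitin ligase whose family acts on the prolyl hydroxylases, fell from 8.67 to 3.69 FPKM (log2 fold change -1.22, adjusted p = 5.47e-05, limma), though reads can be shared with its near-identical copy Siah1a. With A-485 over OGD 1 of 14 was called higher, Os9, a lectin that can bridge HIF-1α and hydroxylases, from 24.2 to 37.3 FPKM (log2 fold change 0.63, adjusted p = 0.000223, limma). For this list and those below, the shares of all genes called were 11.2% higher and 9.81% lower in OGD, and 12.2% higher and 13.4% lower with A-485 over OGD. The median log2 fold change of the list was -0.05 in OGD and -0.00 with A-485, against 0.01 and 0.01 over all genes.

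Among 10 coactivators and corepressors of HIF, of which 9 passed the filter, 2 were called higher in OGD and 0 lower by limma and by limma-voom (2 lower at an unadjusted p-value under 0.05). Both belong to the CITED family, which binds P300 and CBP, and Cited2 is a HIF target that competes with HIF-α for them. Cited1 rose from 0.467 to 3.64 FPKM (log2 fold change 2.72, adjusted p = 1.41e-06, limma) and Cited2 from 67.0 to 109 FPKM (log2 fold change 0.70, adjusted p = 1.93e-06, limma). With A-485 over OGD, a comparison that shares the OGD libraries, 2 genes were called lower, to 1.05 FPKM for Cited1 (log2 fold change -1.71, adjusted p = 8.96e-06, limma) and to 65.4 FPKM for Cited2 (log2 fold change -0.74, adjusted p = 7.41e-07, limma). Ep300 and Crebbp, which encode the targets of A-485, were not called in any comparison. With A-485 over OGD, Ep300 was at 0.18 in log2 (adjusted p = 0.0377, limma) and Crebbp at 0.40 (adjusted p = 0.00132, limma). In OGD + A-485 against control the values were 0.04 (adjusted p = 0.605, limma) and 0.27 (adjusted p = 0.00885, limma). Ep300 was at 14.1, 12.9 and 14.6 FPKM and Crebbp at 5.45, 4.99 and 6.60 FPKM in control, OGD and OGD + A-485. The list medians were -0.07 and -0.07.

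Other bHLH-PAS proteins, the family of HIF-α and ARNT, were measured with 7 of 12 genes above the filter. In OGD 0 were called in either direction by limma, while 1 in each direction had an unadjusted p-value under 0.05. Limma-voom called 1 higher, Sim2, and 1 lower, Npas1, both with under 1 FPKM on average and named after their values were seen. In OGD + A-485 against OGD 4 of 7 were called lower, where 13.4% of all genes were. By limma and limma-voom 0 were called higher, and 0 at an unadjusted p-value under 0.05. Arnt2, the paralog of Arnt best known from neurons, was at 1.89 FPKM in control and 2.13 FPKM in OGD and fell to 0.750 FPKM with A-485 (log2 fold change -1.39, adjusted p = 4.45e-05, limma). The other 3, named after their values were seen, were the clock gene Arntl (-0.62), its paralog Arntl2 (-1.55) and Sim2 (-0.78), of which the last 2 averaged under 1 FPKM. The list median was -0.62 with A-485 over OGD, against 0.01 over all genes. With a pseudocount of 1 FPKM 1 gene was called, and with genes under 1 FPKM left out 2 were.

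A further list held other oxygen-dependent hydroxylases and dioxygenases. Of the 9 of 10 genes above the filter, 0 were called higher in OGD by limma and by limma-voom, and 2 had an unadjusted p-value under 0.05. Called lower were Jmjd4 and, named after its values were seen, Ado, an oxygen-sensing thiol dioxygenase (log2 fold change -0.54). Jmjd4, a lysyl hydroxylase of the translation termination factor eRF1, fell from 3.80 to 2.08 FPKM (log2 fold change -0.85, adjusted p = 0.000329, limma). With a pseudocount of 1 FPKM, 1 gene was called lower. With A-485 over OGD 1 gene was called, Hspbap1, which fell from 3.82 to 1.34 FPKM (log2 fold change -1.45, adjusted p = 1.3e-06, limma). The list medians were -0.39 in OGD and 0.04 with A-485.

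To set Egln1 and Egln3 beside other genes under HIF, 48 known targets were listed, of which 46 were tested. In OGD 27 of 46 (58.7%) were called higher and 1 lower, where 11.2% and 9.81% of all genes were, and the list median was 0.78. With A-485 over OGD 4 of 46 were called higher and 5 lower, where 12.2% and 13.4% of all genes were, and the list median was 0.06. Against control, 29 of 46 (63.0%) were called higher in OGD + A-485 and 2 lower, where 17% and 16.6% of all genes were. The list median there was 0.75. Beside these, Egln1 was called higher than control in both OGD groups, whereas Egln3 was called higher in one and lower in the other. Of the targets, Mxi1 moved in the same directions. It was above control in every OGD library (log2 fold change 0.28, not called) and called lower with OGD + A-485 (-0.57).

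**Figure D4:**
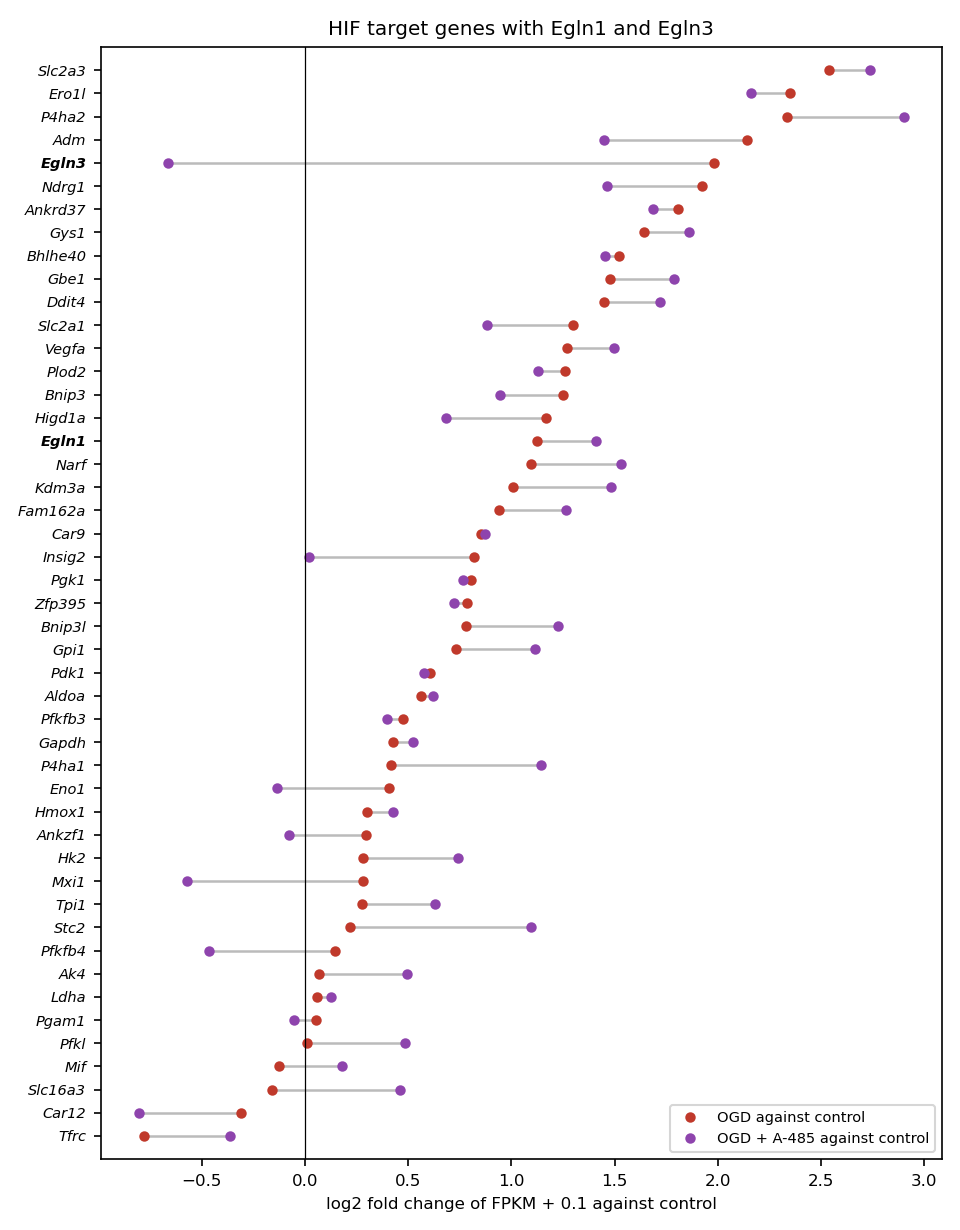
Log2 fold change of FPKM + 0.1 against control, for OGD and for OGD + A-485, of HIF target genes tested, shown with Egln1 and Egln3 (bold), ordered by the value in OGD. Both values share the control libraries. Egln3 goes from 1.98 to -0.66, while 29 of the 46 targets are called higher than control in OGD + A-485, where 17% of all genes are.

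Vegfa, the angiogenic growth factor, was at 14.7, 35.6 and 41.9 FPKM in control, OGD and OGD + A-485 and rose in OGD by 1.27 in log2 (adjusted p = 3.43e-07, limma). The glucose transporter gene Slc2a1 was at 128.7, 317.5 and 237.4 FPKM, with a rise of 1.30 (adjusted p = 1.41e-06, limma). Ndrg1, a stress-responsive gene widely used as a hypoxia marker, was at 28.3, 108 and 78.3 FPKM and rose by 1.92 (adjusted p = 2.39e-07, limma). All 3 stayed above control in every OGD + A-485 library. None was called between OGD + A-485 and OGD, where their values were 0.23, -0.42 and -0.46 in log2. The adjusted p-values there were 0.00253, 0.000492 and 0.000273 (limma).

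The mitophagy receptor gene Bnip3 rose by 1.25, the ankyrin repeat gene Ankrd37 by 1.81, the histone demethylase gene Kdm3a by 1.01 and Pdk1, which restrains pyruvate entry into mitochondria, by 0.60 in log2, all with adjusted p-values of at most 4.92e-06 (limma). None of these 4 was called between OGD + A-485 and OGD, where their values were -0.31, -0.12, 0.47 and -0.03. The adjusted p-values there were 0.00996, 0.312, 0.000173 and 0.56 (limma).

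Among the targets called lower with A-485 over OGD, named after their values were seen, were Mxi1 (-0.85), Insig2 (-0.80), Pfkfb4 (-0.61) and Eno1 (-0.54). Against control, Insig2 went from 0.82 in OGD, called higher, to 0.02 with OGD + A-485, not called. Pfkfb4 went from 0.14 to -0.47 and Eno1 from 0.41 to -0.14, none of them called.

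The targets called higher with A-485 over OGD were Stc2 (0.88), P4ha1 (0.73), Slc16a3 (0.62) and P4ha2 (0.57), of which Slc16a3 and P4ha2 were named after their values were seen. P4ha1 and P4ha2 encode collagen prolyl hydroxylases of the same enzyme class as the EGLN proteins, and P4ha1 was at 42.6, 57.0 and 94.3 FPKM. Its value in OGD, 0.42, was not called. Tfrc, the transferrin receptor, was the 1 target called lower in OGD, from 119.7 to 69.6 FPKM (log2 fold change -0.78, adjusted p = 1.11e-06, limma).

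The genes whose log2 values over the 9 libraries were most like those of each called gene were found among 10286 candidates by Pearson's r, given as a description. The 9 points share 3 groups, so r is high for any gene with the same order and spacing of group means. Egln3 was most like Plau (r = 0.998), Cda (0.996) and AA467197 (0.995). Plau, the urokinase gene, was at 94.1, 343 and 62.2 FPKM in control, OGD and OGD + A-485, Cda, for cytidine deaminase, at 8.48, 28.0 and 5.82 FPKM, and AA467197 at 8.12, 65.6 and 4.92 FPKM. All 3 were highest in OGD and had a mean below control with A-485, as did Egln3.

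Egln1 was most like Bsg (r = 0.998), which encodes a chaperone of lactate transporters, Impa2 (0.997) and Fam162a (0.997), a HIF target of the list above. Egln2 was most like Pik3r2 (0.995), Slc4a2 (0.995) and Adap1 (0.994). Arnt was most like Ulk3 (0.996), Zfp949 (0.995) and Hjurp (0.993). Epas1 was most like Coq3 (0.995), Disc1 (0.993) and Vipas39 (0.991), and Vhl was most like Tnfrsf26 (0.994), Klf6 (0.993) and Osgin1 (0.989).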

How the data were processed

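The 9 RNA libraries of BV2 cells were put into 3 groups by their labels. The authors counted reads on genes with featureCounts and deposited FPKM computed from read count and gene length, on GRCm38 per the submitters' processing notes. The aligner and the strand setting are not given in the sources used here. Multiplied by length and a divisor per library, the deposited FPKM gave whole reads (tolerance 0.01) for 100% of values, so depth was known; 1 read on 1 kb was worth 0.0618 to 0.0786 FPKM. No 2 libraries held identical values.

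The 9 genes, the gene lists and the tests were chosen with earlier results of these data known. limma 3.58.1 in R 4.3.3 fitted log2(FPKM + 0.1) on group means with a variance trend, and was tested on simulated data. Because FPKM were deposited, DESeq2, which the authors used, was replaced by limma. Ratios and shares were compared over libraries by exact permutation (scipy 1.17.1, Python 3.11.15). Gene coordinates and lengths are those given with the deposited values, and promoters are RefSeq. The annotation release is not stated. Coordinates of the 9 genes match GENCODE M21 except for the start of Epas1.

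Named were all 9 genes; the 3 genes most like each called one; from each list the largest called rise and fall in OGD and with A-485 (genes averaging 1 FPKM or more); and, whatever their change, the VHL partners, Ep300, Crebbp, Cited2 and 8 HIF targets. One item of the lists counts in their totals but is not reported here by name or value. Alternatives were a pseudocount of 1 or 0.01, a floor of 1 FPKM or none, library totals, quantile normalization, subtraction of the median of 50 neighbouring genes, limma-voom, no trend, adjusted p-values, fits of 2 groups, a replicate block and each library left out.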

Additional observations from a re-analysis of the deposited data

How the results depend on the processing

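Of the 27 values of the 9 genes (3 comparisons each), 16 kept their direction and call in every alternative run, among them all 3 of Egln3 and of Egln1, though Egln1 with A-485 over OGD, not called, moved from 0.29 to 0.09 with the neighbour median removed. Turned values were Hif1a in OGD (-0.13 to 0.031 without a library, above 0 without OGD replicate 3), Hif3a in OGD + A-485 against control (-0.23 to 0.035, above 0 without OGD + A-485 replicate 3), and Hif1an with the neighbour median removed (0.32 against OGD, 0.12 against control). Over all alternatives for the 9 genes, 14 values newly passed the threshold and 3 no longer did, and 547 did neither, the turned ones included. Scaling to library totals moved the median of all genes by -0.11 (log2) in OGD + A-485 against control. Under it and under quantile normalization, 2 of the 9 were called lower in that comparison (1 to 2 without a library). With quantile normalization or the neighbour median removed, 2 were called higher with A-485 over OGD.

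With a pseudocount of 1, 1 turnover gene and 1 cofactor gene were called higher in OGD + A-485 against control (3 and 2 otherwise), 1 other oxygen enzyme was called lower in OGD, and 1 bHLH-PAS gene was called lower with A-485 over OGD (2 with a minimum mean of 1 FPKM). In OGD, 1 bHLH-PAS gene was called lower with quantile normalization, with adjusted p-values and with limma-voom, which also called 1 higher (limma-voom on the lists was chosen after seeing the data). Without single libraries, bHLH-PAS genes called in OGD ranged from 0 to 1 higher and 0 to 1 lower, and other oxygen enzymes from 1 to 2 lower in OGD and 0 to 1 higher in both A-485 comparisons. Quantile normalization called 9 HIF targets lower with A-485 over OGD, and gave Egln1 shares of 25.4% in control and 18.6% in OGD, an Egln3 share of 78.9% in OGD, and with A-485 a Hif1a share of 75.9%, an Epas1 share of 23.7% and a hydroxylase to alpha ratio of 4.53. The cause of these moves was not tested.

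No shared effect of the replicate number was seen between groups, and the labels do not say whether libraries with the same number were handled together. Deviations from the group means correlated from -0.0463 to 0.0386 between libraries with the same number (9 pairs) and from -0.0599 to 0.0545 between others (18 pairs). With the number as a replicate block, 3288 genes were called in OGD (3384 without it), 4046 with A-485 over OGD (4139) and 5317 against control (5431), and no call of the 9 genes changed. Hif3a, at 10 to 36 reads per library, was the only one of the 9 limited by depth.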

Other observations

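Further ratios were formed after the values had been seen and are given without a test (mean ± SD, n = 3). Hif1a over Epas1 was 8.39 ± 1.06 in control, 6.49 ± 0.887 in OGD and 3.36 ± 0.139 with OGD + A-485. Arnt over the summed alpha subunits was 0.316 ± 0.0169, 0.435 ± 0.0345 and 0.352 ± 0.0194. Vhl over the same sum was 0.212 ± 0.0144, 0.334 ± 0.0319 and 0.471 ± 0.0417.

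In OGD + A-485 against control, where 17% of all genes were called higher and 16.6% lower, some list genes were called that neither step had called, and those below were named after their values were seen. Siah2, a ubiquitin ligase that acts on PHD3, was called higher (log2 fold change 0.60, adjusted p = 4.39e-05, limma), with 3.56 FPKM in control, 4.39 FPKM in OGD and 5.43 FPKM with A-485. Usp20, a deubiquitinase of HIF-1α, was called higher at the limit (0.50, adjusted p = 0.000305, limma). With a pseudocount of 1 neither Siah2 (0.50) nor Usp20 (0.43) was called. The coactivator gene Ncoa1 was called higher (0.80, adjusted p = 1.47e-05, limma), with 3.35, 4.66 and 5.89 FPKM in the same order. Car12, a carbonic anhydrase among the HIF targets, was called lower (-0.80, adjusted p = 1.05e-06, limma), with 22.3, 17.9 and 12.7 FPKM.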
